A study of Mus musculus with 9 samples.

Results

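Circular RNAs (circRNAs) of 3 cytoskeletal genes, Map4, Map1a and Actr2, were followed through RNA immunoprecipitation (RIP) of HuD from the adult mouse striatum. All array features with the gene symbol Map4, Map1a or Actr2 in the authors' deposited lists, which hold the circRNAs they found raised in HuD RIP over a control, were taken. There were 5 such circRNAs, 1 from Map4, 1 from Map1a and 3 from Actr2, of 737 named in the lists and of 14330 non-control features on the array. All 5 are in the list against IgG RIP (668 circRNAs), and 4 are in the list against WT RIP (510 circRNAs), where Map1a is missing. The circRNAs were thus selected on their measured difference between HuD RIP and a control, and that difference is described here and not tested.

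HuD, the product of Elavl4, belongs to the neuronal Hu family of RNA-binding proteins, which recognise AU-rich and U-rich elements and stabilise many of the messages they bind. A circRNA forms when a downstream splice donor is joined to an upstream acceptor of the same transcript, and the array detects it by a sequence across that join. Map4 encodes a microtubule-associated protein found in most tissues, Map1a encodes a microtubule-associated protein of mature neurons that is abundant in dendrites, and Actr2 encodes Arp2, a subunit of the Arp2/3 complex that starts branched actin filaments, as in dendritic spines.

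There were 9 samples, 3 in each of 3 groups. For HuD RIP, striatum of adult mice that overexpress myc-tagged HuD from the Camk2a promoter (HuD-OE, backcrossed to C57BL/6J) was precipitated with the anti-myc antibody 9B11. WT RIP used that antibody on wild-type striatum, and in IgG RIP the control antibody was applied to HuD-OE striatum. For IgG RIP the methods of the study give a non-immune IgG, while the sample labels give the anti-myc antibody. The transgene's promoter is active in forebrain neurons, and the precipitated protein is the tagged transgene product and not the mouse's own HuD. Tissue of 3 mice was combined for a precipitation and 3 separate assays were run. Whether the 3 came from separate pools is not clear, so p-values measure only the spread between assays, which may be technical. WT RIP and IgG RIP differ from each other in both tissue and antibody. They differ in the row on the slide too, all WT RIP arrays being in row 1 and all IgG RIP arrays in row 2. These cannot be told apart.

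The 5 junction sequences are the parts of these RNAs that the array reads, and they tell the 3 Actr2 circles apart. They are printed as the deposited lists give them, 5′ to 3′, with capitals marking a run of TTTTT or of its complement AAAAA. The position of the join within the letters is not stated.
Map4 ASCRP4013809: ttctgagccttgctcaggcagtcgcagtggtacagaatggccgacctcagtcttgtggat
Map1a ASCRP4011284: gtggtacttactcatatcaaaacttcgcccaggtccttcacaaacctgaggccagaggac
Actr2 ASCRP4002549: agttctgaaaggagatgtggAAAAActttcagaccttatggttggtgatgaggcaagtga
Actr2 ASCRP4010223: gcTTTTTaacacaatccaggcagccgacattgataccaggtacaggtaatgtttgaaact
Actr2 ASCRP4010398: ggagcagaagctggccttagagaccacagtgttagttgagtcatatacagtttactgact

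Each junction has 60 bases, and the longest run that any pair of the 3 Actr2 junctions shares is 5 bases. T made up 26.7% of the Map4 junction and of each Actr2 junction and 21.7% of the Map1a junction, against a median of 23.3% over the 737 named junctions. A and T together made up 45% for Map4, 50% for Map1a, and 58.3%, 58.3% and 55% for Actr2 ASCRP4002549, ASCRP4010223 and ASCRP4010398, against a median of 55%. The composition of the members thus lay on both sides of the usual value. AU-rich letters were searched on both strands. ATTTA was in none of the 5 junctions on either strand, and it is in 5.29% of the named junctions as given and in 3.8% on the complement. TTTTT was in 1 member as given, Actr2 ASCRP4010223, and in 1 on the complement, Actr2 ASCRP4002549, and it is in 3.66% and 8.41% of the named junctions. TTTNTTT, whose hits can overlap those of the motif before, was in no member and in 1.09% and 3.8% of the named junctions. The window holds only the join, so these searches say nothing of the rest of each circle.

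Map4 ASCRP4013809 (mmu_circRNA_45112, transcript NM_008633) spans chr9:109978850-110036855 on the plus strand and is exonic, with 58.0 kb between its ends. That is 37.6% of the Map4 gene, and only 63 of the 737 named circRNAs have a longer span. Map1a ASCRP4011284 (mmu_circRNA_34414, NM_032393) spans chr2:121298597-121299046 on the plus strand and is exonic, with 450 bases between its ends, and 699 named circRNAs span more. The median span over the named circRNAs was 10358 bases, so these microtubule-associated circles sit far apart on that scale.

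The 3 Actr2 circles lie on the minus strand of chromosome 11 and are assigned to NM_146243. ASCRP4002549 (mmu_circRNA_22927, exonic) spans chr11:20072456-20094445 and ASCRP4010223 (mmu_circRNA_19003, sense overlapping) spans chr11:20077185-20091370. ASCRP4010398 (mmu_circRNA_22928, exonic) spans chr11:20080023-20080798. They are nested, with spans of 21990, 14186 and 776 bases, and no pair shares a start or an end, the nearest starts being 2838 bases apart and the nearest ends 3075. Sense overlapping circles were 68 of the 737 named (9.23%) and exonic circles 644 (87.4%). Actr2 is 1 of 34 genes with 3 or more named circRNAs, among 548 genes with any. All 5 spans fall inside their genes on GRCm38.p6, although the lists name no build.

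**Figure D1:**
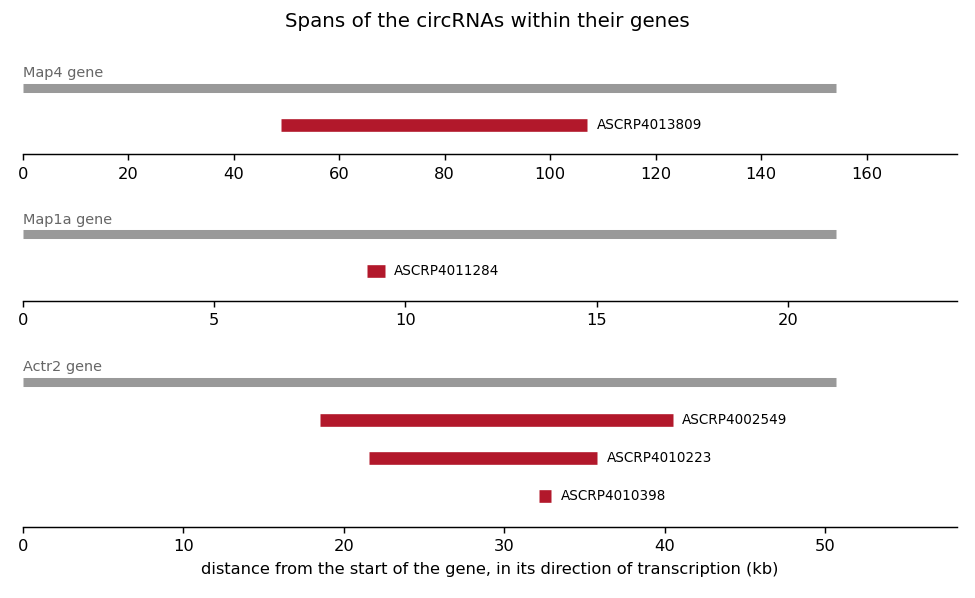
Spans of the 5 circRNAs (red bars) within their genes (grey bars), with the distance in kb from the start of each gene in its direction of transcription on the horizontal axis, which differs between panels. The 3 Actr2 spans of 21990, 14186 and 776 bases are nested, the Map4 span covers 37.6% of its gene and the Map1a span 2.12%.

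The circles' lists of 5 predicted microRNA partners, supplied with the array annotation, overlap between members only within Actr2. Actr2 ASCRP4002549 and ASCRP4010398 both list mmu-miR-6340 and mmu-miR-6971-3p, and ASCRP4010223 lists neither. Over the 737 named circRNAs, mmu-miR-6340 is listed for 10 (1.36%) and mmu-miR-6971-3p for 8 (1.09%). Of the 23 different microRNAs listed for the members, 19 had a mature sequence in the RefSeq table (GRCm38.p6), and these had 18 different seeds. The shared pair of seeds belongs to mmu-miR-3064-5p and mmu-miR-3085-3p, both listed for Map4. Of the microRNAs shared by circles or by seed, the 3 with a mature sequence in that table are shown with the seed, bases 2 to 8, in capitals.
mmu-miR-6340: gUCAGCAGcagcuucgcuuuggc
mmu-miR-3064-5p: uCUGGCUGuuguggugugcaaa
mmu-miR-3085-3p: uCUGGCUGcuauggcccccuc

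The letters complementary to a listed microRNA's seed were found in 1 member's own junction, that of Map1a, for mmu-miR-6962-5p. The rest of each circle's sequence was not searched. No microRNA was measured on these arrays.

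The arrays themselves differed in brightness before scaling. The 75th percentile of the log2 processed signal ranged from 3.49 to 5.46 in HuD RIP, from 2.35 to 3.51 in WT RIP and from 2.04 to 2.42 in IgG RIP, and its part in the differences was not tested beyond the other scalings tried. Each array was therefore set to its own 75th percentile, so a scaled log2 signal of 0 stands for the 75th percentile of that array. Only 21.8% and 21.7% of features were well above background on IgG RIP replicates 2 and 3. The dimmest of these features read 0.0681 and 0.0685 after scaling, so the 75th percentile there was not itself well above background. On every other array the dimmest such feature read below 0. HuD RIP replicates 1, 2 and 3 had shares of 73.9%, 43.7% and 55.7%. Scaled differences from IgG RIP, and their bounds, use the percentiles of those IgG RIP arrays. All 5 members passed the filter for testing (3 or more of the 9 arrays well above background), as did 6871 features in all. Map4 and the Actr2 circRNAs passed it only through the HuD RIP arrays, where they are high. Map1a alone would have passed on the control arrays. After scaling, the median log2 difference of those 6871 features was -0.36 for HuD RIP minus WT RIP, -0.29 for HuD RIP minus IgG RIP and -0.05 for WT RIP minus IgG RIP. IgG RIP replicate 3 alone had a different scan date in its file header, which is taken here as a second slide. The tissue could not be checked, since a circRNA is named only where the authors listed it as higher in HuD RIP. Striatal neuron markers were represented by 7 circRNAs of Arpp21, Bcl11b and Foxp1, and glial and vascular markers by 1, of the glutamate transporter gene Slc1a2, all of them well enough measured to be tested.

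Map4 was well above background in HuD RIP alone. Its processed signal, the scanner's background-subtracted intensity on a linear scale, was 358, 57.7 and 177 on the 3 HuD RIP arrays. WT RIP gave 1.19, 1.02 and 1.02 and IgG RIP 1.07, 0.982 and 1.01, and none of these was well above background. Signals near 1 are at the bottom of the scanner's scale and have no order. The order of the HuD RIP arrays followed their brightness, and after scaling they read 3.02, 2.36 and 3.26, above all 6 control arrays. As the controls gave only an upper limit, the mean of HuD RIP, 2.88 ± 0.466 (SD, n = 3), was at least 12.5-fold higher than that of WT RIP and, by the same rule, at least 7.60-fold higher than that of IgG RIP. The limits are set by the dimmest feature that counted as well above background on each control array, and they differ with the array and not with Map4. With the controls entered at their floor readings, the fitted difference was 5.67 (SE 0.40) against WT RIP and 5.02 (SE 0.40) against IgG RIP in log2, which is not a measured fold. It was 2.54 and 2.60 on the authors' normalized values and 1.71 and 1.66 with normexp background correction. Put on the same scale, these values are below the bounds. The bounds were computed only for the main processing and do not carry over to the authors' values or to normexp. For WT RIP, which used other tissue, fewer cells with the RNA, less RNA per cell and lower recovery cannot be told apart. Input RNA was not analysed here. IgG RIP used HuD-OE striatum as HuD RIP did, and the cause of that difference was not tested.

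The widest of the Actr2 circles, ASCRP4002549, was likewise well above background on the HuD RIP arrays alone. Its processed signal was 190, 36.7 and 124 in HuD RIP, and 4.0 on WT RIP replicate 1 and at most 1.09 on the other control arrays, with no control array well above background. The scaled log2 signal in HuD RIP was 2.10, 1.70 and 2.75, with a mean of 2.19 ± 0.527 (SD, n = 3), above every control array. The bounds were at least 7.73-fold over WT RIP and at least 4.71-fold over IgG RIP. With the floor readings entered, the fitted differences were 4.40 (SE 0.45) and 4.33 (SE 0.45) in log2. They were 1.93 and 2.07 on the authors' normalized values and 1.23 and 1.21 with normexp, again below the bounds.

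The sense overlapping circle, ASCRP4010223, was well above background on all HuD RIP arrays and on 1 control array. Its processed signal was 741, 94.5 and 286 in HuD RIP and 12.4, 1.02 and 2.35 in WT RIP. It was 2.65, 0.973 and 1.03 in IgG RIP. That control array was WT RIP replicate 1, and the others were at or near the floor. The scaled log2 mean was 3.70 ± 0.546 (SD, n = 3) in HuD RIP and -1.27 ± 1.26 (SD, n = 3) in WT RIP. Against IgG RIP, where no array measured it, HuD RIP was at least 13.4-fold higher under the main processing. That difference was 3.15 in log2 on the authors' normalized values and 2.27 with normexp, also below the bound. The fitted log2 difference from WT RIP was 4.96 (SE 0.59), and 5.66 without WT RIP replicate 1. Its size rests on floor readings of the WT RIP arrays, and it was 2.99 on the authors' normalized values and 2.26 with normexp background correction. All 3 HuD RIP arrays exceeded all 6 control arrays.

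The smallest circle, ASCRP4010398, was measured above background in both controls, on 1 array each. Its processed signal was 659, 42.9 and 133 in HuD RIP. It was 12.7, 2.76 and 1.26 in WT RIP and 5.03, 1.02 and 1.09 in IgG RIP, the first array of each group being well above background. The HuD RIP arrays varied more than for the other members, with a scaled log2 mean of 2.89 ± 0.985 (SD, n = 3), but the lowest of them, 1.93, was above the highest control array, 0.16. The fitted log2 difference was 3.96 (SE 0.73) against WT RIP and 4.23 (SE 0.73) against IgG RIP. These sizes rest on floor readings too, and were 2.30 and 2.48 on the authors' normalized values and 1.70 and 1.71 with normexp. Against WT RIP it was 4.58 without WT RIP replicate 1 and 3.26 without WT RIP replicate 3, and against IgG RIP it was 4.86 without IgG RIP replicate 1.

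**Figure D2:**
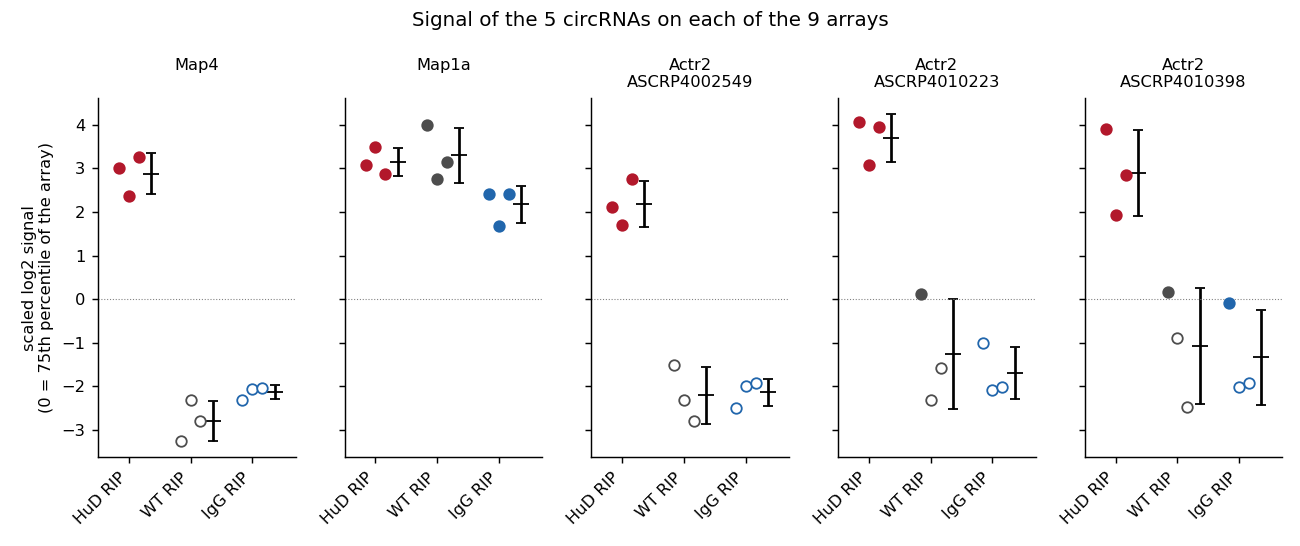
Scaled log2 signal (vertical axis, 0 being each array's 75th percentile) of each circRNA on the 3 HuD RIP, 3 WT RIP and 3 IgG RIP arrays, with the mean and SD of each group as a bar beside the points. Filled points are well above background and open points are not, and Map1a is the only panel in which all 9 points are filled.

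Map1a differed from the other members in being measured everywhere. Its processed signal was 375, 127 and 134 in HuD RIP, 181, 34.6 and 62.7 in WT RIP and 28.8, 13.2 and 22.2 in IgG RIP, and it was well above background on all 9 arrays, as were 2594 features. The scaled log2 signal was 3.09, 3.49 and 2.86 in HuD RIP, 3.99, 2.76 and 3.15 in WT RIP and 2.42, 1.68 and 2.42 in IgG RIP. HuD RIP and WT RIP overlapped, and both lay above IgG RIP without overlap. The group means were 3.15 ± 0.318, 3.30 ± 0.630 and 2.18 ± 0.426 (SD, n = 3 each). The log2 difference was -0.15 (SE 0.43) for HuD RIP minus WT RIP and 0.97 (SE 0.43), or 1.96-fold, for HuD RIP minus IgG RIP.

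The sign of the first Map1a difference depended on the scaling and on 1 array, being -0.15 with the 75th percentile and -0.27 with the median of each array, but 0.19 without WT RIP replicate 1, 0.30 with quantile normalization, 0.84 with cyclic loess, 0.56 with the percentile over features measured on all arrays and 1.34 with no scaling. Against IgG RIP it was above 0 under each of these scalings, between 0.88 and 3.19. The median of all tested features moved with the scaling too, to 1.13 against WT RIP and 1.93 against IgG RIP with no scaling. Map1a lay above that median under each of these 6 scalings in both comparisons. Nothing is read from this in either comparison. The list against IgG RIP selected Map1a, and both comparisons share the HuD RIP arrays. Against WT RIP its difference ranked 3047 of the 6871 tested features with the 75th percentile. On the authors' normalized log2 values Map1a was also the nearest of the members to the study's 1.5-fold threshold against IgG RIP, with 0.94, the next being Actr2 ASCRP4002549 with 2.07.

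**Figure D3:**
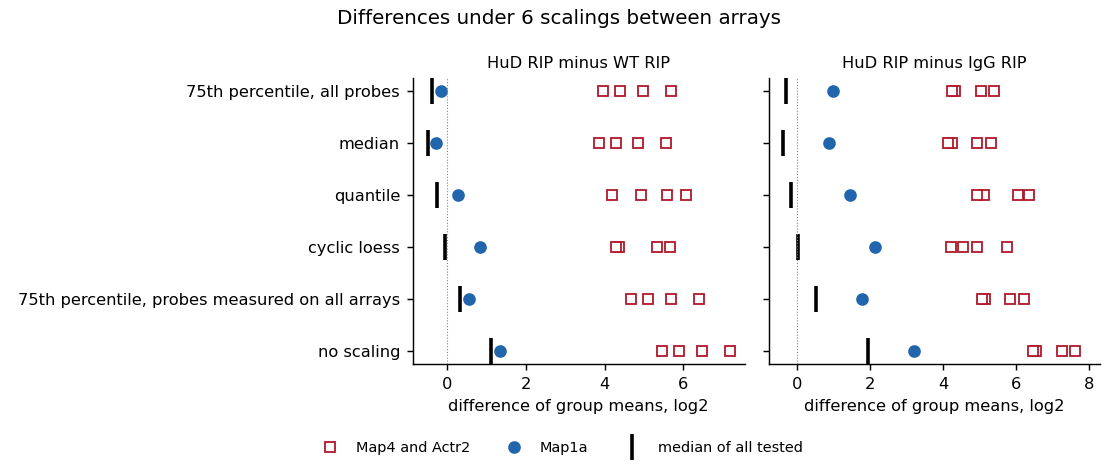
Log2 difference of group means (horizontal axis) for Map1a (filled circles), Map4 and the Actr2 circles (open squares) and the median of all 6871 tested features (black ticks) under 6 ways of scaling the arrays. The Map1a point crosses 0 in HuD RIP minus WT RIP, from -0.27 to 1.34, while the squares stay between 3.85 and 7.17.

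The comparison of WT RIP with IgG RIP asks how far the controls differ from each other. It was not itself used in choosing the members, but the arrays of both controls entered the lists. Map1a is in the list against IgG RIP alone, a choice that favours low IgG RIP values. Its difference between the controls is thus not free of the selection. In limma's fit over all 9 arrays, 1 of the 6871 features (0.0146%) differed between them at an adjusted p under 0.05, 393 had an unadjusted p under 0.05, and 0 members passed. Map1a alone of the members was measured on all of these arrays. Map1a was 1.12 higher in WT RIP in log2 (SE 0.43, 95% interval 0.19 to 2.06), or 2.18-fold, with all 3 WT RIP arrays above all 3 IgG RIP arrays. Its adjusted p in limma was 0.80 and its unadjusted p 0.022, so the difference did not pass the test. For Actr2 ASCRP4010223 the difference was 0.44 (SE 0.59) and for ASCRP4010398 it was 0.27 (SE 0.73), each with an adjusted p of 0.999 in limma and with most control arrays at the floor. Map4 and Actr2 ASCRP4002549 were not measured in either control, so no difference is given for them.

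In the contrasts that chose the members, HuD RIP was called higher than WT RIP for 4 of 5 at an adjusted p under 0.05 and for 12.4% of all tested features, and higher than IgG RIP for 4 of 5 and for 14.2%. Map1a was the exception in both, but against IgG RIP that depended on the processing, since Map1a was called higher there under 7 alternatives. All 3 HuD RIP arrays lay above all 3 WT RIP arrays for 4 members and for 14.9% of tested features. They lay above all 3 IgG RIP arrays for 5 members and for 20.9%, and above all 6 control arrays for 4 members and for 12.5%. Nothing is read from these counts, since the lists were drawn from the same arrays. Both comparisons also share the 3 HuD RIP arrays. Over the 5 members, the median log2 difference from WT RIP was 4.40 and that from IgG RIP 4.33. With members that have only a bound entered at that bound, these medians were 3.64 and 2.93.

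**Figure D4:**
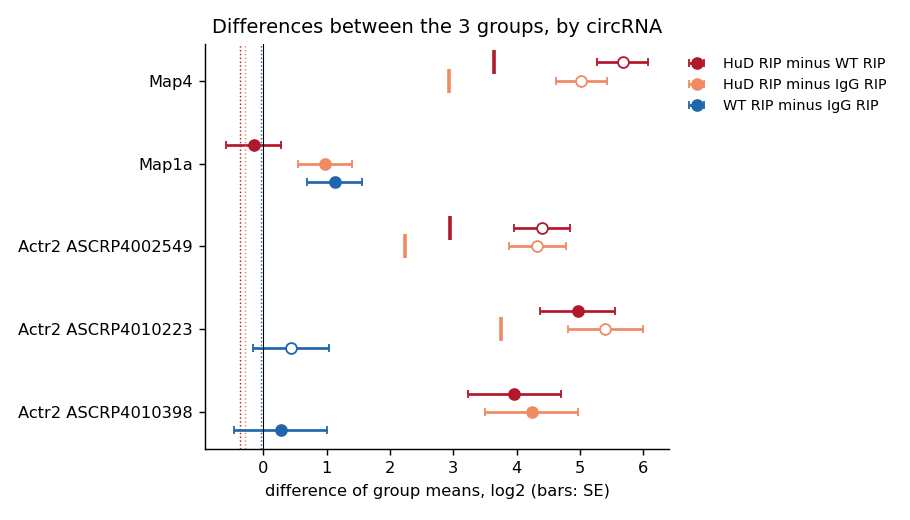
Log2 difference of group means (horizontal axis, bars are SE from limma) for each circRNA in the 3 comparisons, with dotted lines at the median of all tested features. Open circles mark a lower group with no array well above background, and vertical ticks mark the smallest difference that the background allows there under the main processing. Map1a is the only circRNA whose HuD RIP minus WT RIP value, -0.15, lies at 0.

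Differences between pairs of circRNAs on the same array need no scaling. On the 3 HuD RIP arrays the log2 signal of Map4 minus that of Actr2 ASCRP4002549 varied with an SD of 0.205, and that of Map4 minus Actr2 ASCRP4010223 with an SD of 0.20. The corresponding SD was 0.751 for Map4 minus Actr2 ASCRP4010398 and 0.783 for Map4 minus Map1a. Within Actr2 it was 0.40 for ASCRP4002549 minus ASCRP4010223, 0.945 for ASCRP4002549 minus ASCRP4010398 and 0.551 for ASCRP4010223 minus ASCRP4010398. The smallest SDs were thus those of Map4 with the wider Actr2 circles, and with 3 arrays this is a description. In WT RIP the same-array difference of Map1a minus Actr2 ASCRP4002549 was 5.51 ± 0.430 (SD, n = 3), against 0.96 ± 0.837 (SD, n = 3) in HuD RIP, with the Actr2 signal at or near its floor in WT RIP.

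The circRNAs of other genes that most resembled each member over the 9 arrays were found by Pearson's r of the scaled log2 signal, among the named and tested circRNAs. The arrays fall into 3 groups, so r mainly follows the group means and carries no p. For Map4 they were Spin1, Hs2st1 and Rbbp4, with r from 0.996 to 0.997. For Actr2 ASCRP4002549 they included Pdcd4 (r = 0.998) and Calm3 (0.996), for ASCRP4010223 they were Ids, Ppp1cb and Hnrnpu (0.988 to 0.996), and for ASCRP4010398 they included Coro1c (0.989) and Mbnl2 (0.979). The median r over all tested features lay between -0.31 and -0.27 for these 4 members. Coro1c, the likest to the smallest Actr2 circle, encodes a coronin, an actin-associated protein.

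Map1a kept other company. Its likest circRNAs were Zfp426 (r = 0.921), Foxp1 (0.881) and Ets1 (0.856), with log2 differences of -0.13, -0.12 and -0.75 in HuD RIP minus WT RIP. In WT RIP minus IgG RIP they read 1.45 (SE 0.45), 0.86 (SE 0.35) and 2.51 (SE 0.50), and in limma none passed the test (adjusted p 0.63, 0.84 and 0.40). These circRNAs were picked by r, which mainly follows the group means. Group differences like those of Map1a thus come with the choice, and nothing is read from them. The junction of Zfp426, which encodes a zinc finger protein, shares a run of 13 bases with that of Map1a, the longest run that Map1a shares with any named junction. Of the 737 named junctions, 60 (8.14%) share a run at least as long with a junction of another gene, and the median of the longest run is 11. The 2 junctions are shown with that run in capitals, and its part in the likeness was not tested.
Map1a ASCRP4011284: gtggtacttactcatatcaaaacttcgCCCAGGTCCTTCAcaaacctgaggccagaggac
Zfp426 ASCRP4001750: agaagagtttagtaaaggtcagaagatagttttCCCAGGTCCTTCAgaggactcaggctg

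Other cytoskeletal circRNAs were counted from gene lists, again only among features named because the authors listed them as higher in HuD RIP, so that their counts describe and do not test. The shares to set beside them are the 12.4% and 14.2% of all tested features called higher than WT RIP and IgG RIP, and nothing is read from the comparison. Of the microtubule-associated proteins, motors and tubulins, 28 circRNAs of 19 genes were named and tested, Map4 and Map1a among them. Against WT RIP 21 were called higher, 0 lower and 7 neither, and against IgG RIP 22 were called higher, 0 lower and 6 neither. Their median log2 differences were 2.32 and 2.36, or 2.10 and 1.42 with bounds entered. The highest of the other genes by mean difference was Dpysl2 ASCRP4012777 (4.36, SE 0.55, against WT RIP and 4.1, SE 0.55, against IgG RIP), whose protein binds tubulin in growing axons. Unlike Map4, that circRNA was measured on all control arrays, so its order relative to Map4 is not known. The lowest was its relative Dpysl3, with 0.65 (SE 0.37) and 0.26 (SE 0.37), called in neither.

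Of the Arp2/3 complex and its activators, 9 circRNAs of 6 genes were named and tested, the 3 of Actr2 and others of Abi1, Abi2, Elmo1, Nckap1 and Wasf1. Actr2 was the only gene among them that encodes a subunit of the complex itself. All 9 were called higher against each control, with median log2 differences of 2.94 against WT RIP and 2.41 against IgG RIP, or 1.92 and 1.2 with bounds entered. Outside Actr2 the highest was Wasf1, the WAVE1 activator of the complex, with 3.70 (SE 0.49) and 2.90 (SE 0.49) and no control array well above background. The lowest was Elmo1, part of a Rac-activating complex, with 1.89 (SE 0.50) and 1.70 (SE 0.50), measured on 1 control array. With controls at the floor for most of these circRNAs, the fitted values give them no firm order.

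The other actin-binding and membrane skeleton proteins gave 16 named and tested circRNAs of 14 genes. Against WT RIP 8 were called higher, 0 lower and 8 neither, and against IgG RIP 11 were higher, 0 lower and 5 neither, with median log2 differences of 1.85 and 2.0, or 1.57 and 1.04 with bounds entered. The highest was Cap2 ASCRP4008391, of an actin-monomer-binding protein, with 2.91 (SE 0.70) and 3.07 (SE 0.70), measured on 1 control array. The lowest was Tmod2, a tropomodulin that caps actin filaments in neurons, with 0.16 (SE 0.37) and 0.49 (SE 0.37). In the striatal neuron list, 6 of 7 circRNAs were called higher against each control, the highest being Arpp21 ASCRP4008264 with 5.47 (SE 0.75) and 4.45 (SE 0.75) and the lowest Foxp1 ASCRP4009892 with -0.12 (SE 0.35) and 0.75 (SE 0.35). The Slc1a2 circRNA of the glial and vascular list was called in neither, with 0.76 and 0.71. Nothing is read from these markers about cell types. In WT RIP minus IgG RIP, where 0.0146% of all tested features were called by limma at an adjusted p under 0.05, 0 circRNAs of the 5 lists were. IgG RIP gave no measurement for 15 of the 28 circRNAs in the microtubule list, 8 of 9 in the Arp2/3 list, 10 of 16 in the other actin list and 3 of 7 in the striatal list.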

How the data were processed

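RNA from 9 immunoprecipitations was digested with RNase R, labelled by random priming with Cy3 and hybridized to Arraystar Mouse circRNA Array V2, 1 sample per array. Per the file headers, intensity was extracted with Feature Extraction 11.0.1.1; the processed signal is background-subtracted and not normalized between arrays. The authors' deposited lists also give log2 values, normalized by a method that is not stated (the submitters' processing notes name limma), and p-values, false discovery rates and fold changes, which were not used, nor were 8 columns of group means. The lists hold only features the authors called higher in HuD RIP, with a study threshold of 1.5-fold.

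Outlier spots (269 values) were left out and spots of 1 feature averaged. The log2 processed signal was reduced by each array's 75th percentile over non-control features. A linear model with 1 mean per group was fitted over the 9 arrays in limma 3.58.1 (lmFit, then eBayes; R 4.3.3) for the 6871 features well above background on at least 3, with Benjamini-Hochberg adjustment over all of them. A bound sets the mean of HuD RIP against, per control array, the higher of the feature's signal and the lowest signal well above background. The script was tested on simulated data. The number of arrays limits the precision. Starts in the lists are 1 base below those of the older names in 12 of 12 cases with the same end, and the spans 1 base longer in 588 of 591, so printed starts were raised by 1 to count from 1. Sequences come from the lists and from RefSeq. Named were all members, the 3 circRNAs likest to each (2 of these are not reported here), and the highest and lowest of each gene list by the mean of both HuD RIP differences. The members and gene lists were chosen with earlier results of these data known. Other scalings, background corrections, filters, blocks and sample sets were alternatives, and the row on the slide as a block was added after seeing the data.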

Additional observations from a re-analysis of the deposited data

How the results depend on the processing

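Map4 and the 3 Actr2 circRNAs had higher values in HuD RIP than in either control under every alternative that gave them a value. The members' median log2 difference, 4.40 against WT RIP and 4.33 against IgG RIP, was 4.92 and 5.11 with quantile normalization, 5.11 and 5.14 with the percentile over features well above background on all 9 arrays, and 5.89 and 6.54 with no scaling. It was 1.70 and 1.66 with normexp background correction, 2.09 and 2.25 with the uncorrected median signal, and 2.48 against IgG RIP with the authors' normalized log2 values; normexp adds an offset of 50, which compresses dim values. With the row on the slide as a block, an alternative chosen after seeing the data that sets HuD RIP replicate 1 alone against WT RIP, it was 4.97 against WT RIP. Leaving out each array in turn gave 4.1 to 4.75 against WT RIP and 4.26 to 4.86 against IgG RIP, and the count called higher stayed at 4 in both. With only features well above background on all 9 arrays, which leaves Map1a alone of the members, 0 were called higher than WT RIP and 1 than IgG RIP. The methods' t-test, after Benjamini-Hochberg adjustment, called 0 higher than WT RIP and 3 higher than IgG RIP. Map1a was called higher than IgG RIP, making 5 members, with quantile normalization, cyclic loess, the percentile over features measured on all arrays, no scaling and the uncorrected signal. With normexp, 3 members were called higher than WT RIP and 4 than IgG RIP, with Actr2 ASCRP4010398 called against neither and Map1a called against IgG RIP. Over all tested features, 850 were called higher and 754 lower than WT RIP, and 974 and 1477 than IgG RIP; these were 1033 and 34, and 1509 and 363, with the percentile over features measured on all arrays, 716 and 121, and 886 and 491, with cyclic loess, 638 and 167, and 1017 and 961, with quantile normalization, 1272 and 0, and 4860 and 8, with no scaling, and 161 and 3, and 255 and 21, with normexp. Without WT RIP replicate 1 the Map1a difference from WT RIP, not called, turned from -0.15 to 0.19. Members called different between WT RIP and IgG RIP were 0 under every alternative. The WT RIP minus IgG RIP difference, not called in any setting, changed sign for Actr2 ASCRP4010398 with the slide as a block (-0.0207, which equals leaving out IgG RIP replicate 3), without WT RIP replicate 1 (-0.34), without IgG RIP replicate 2 (-0.06) and with the row as a block (-1.24), its range on leaving out arrays being -0.34 to 0.98. For Actr2 ASCRP4010223 it changed sign without WT RIP replicate 1 (-0.26; range -0.26 to 0.97) and with the row as a block (-0.12). WT RIP and IgG RIP share no row, so with the row as a block their difference comes only by way of the HuD RIP arrays. The cause of these changes was not tested. Whether replicate numbers pair the samples is not known. Correlations of same-numbered deviations ran from -0.099 to 0.648. The highest were 0.648 and 0.557, for HuD RIP with WT RIP in replicates 1 and 2. With the replicate block the counts stayed at 4, 4 and 0 and the medians at 4.40 and 4.33.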
